A study of Rattus norvegicus with 2 samples.

Results

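The genes described here are 10 members of the negative limb and output arm of the circadian clock, out of 17049 genes in the expression table. They were chosen by symbol, as clock repressors and outputs: Bhlhe40, Bhlhe41, Per1, Per2, Per3, Cry1, Cry2, Nr1d1, Nr1d2 and Dbp. All 10 were found in the table. The group was put together with the read ratio of Bhlhe40 in these same libraries already known, so its values and those of the other members are descriptions and carry no test. RNA came from primary oligodendrocyte precursor cells (OPCs), the dividing glia that give rise to oligodendrocytes, prepared from wild-type adult rat brain and cultured in OGM medium at 37 °C with 5% CO2. The Aβ group is 1 library from cells given 1 µM amyloid-β (Aβ), a peptide that forms plaques in Alzheimer's disease, over 2 days. The control group is 1 library labelled DMSO, a solvent. The treatment text attached to both samples mentions Aβ, so groups follow the treatment label. The sources used here do not name the rat strain, the number of animals per culture or the time of day of collection.

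The Aβ library held 15704932 estimated reads and the control library 15663751. With 1 library per group there is no replicate check, and each 95% interval below covers counting error in these 2 libraries alone. Reads carry no molecular identifiers and are not independent molecules. The OPC factors Olig1 and Olig2 were abundant, Olig1 at 1421 TPM with Aβ against 1557 TPM in control cells. TPM is a level corrected for gene length and scaled to the library. Pdgfra, an OPC surface receptor, had 23.2 TPM with Aβ against 24.6 TPM in control cells, while Sox10 was at 0.84 TPM with Aβ against 1.22 TPM in control cells and Gpr17 at 0.13 TPM in each library. Of 9 OPC markers that reached 1 TPM in at least 1 library, 3 were at least 25% higher with Aβ on values of TPM + 1 and 0 were at least 20% lower, set beside 5.74% and 4.75% of all such genes. Those were Cspg4 (NG2) at 6.65 TPM with Aβ against 3.70 TPM in control cells, C1ql1 at 8.24 TPM with Aβ against 4.25 TPM in control cells, and Cacng4 on 76 Aβ reads and 53 control reads. For the ratio of reads per library total, Aβ over control, the 95% interval was above 1 for 2 of the 9 and under 1 for 4. Among all such genes those shares were 12% and 12.5%. The 4 were Olig1, Olig2, Ptprz1 and Pdgfra, and the interval of Cacng4 held 1 (0.994 to 2.07). Markers of other brain cells were present in both libraries. The summed level of 9 astrocyte markers was 2359 TPM with Aβ against 2369 TPM in control cells. Slc1a3 alone gave 1013 TPM with Aβ and 987 TPM in control cells. The interval was above 1 for 3 of the 9 astrocyte markers and under 1 for 4, so near-equal sums do not mean that single markers were equal. The sum of 13 microglial markers was 291.8 TPM with Aβ against 342.8 TPM in control cells. Mature oligodendrocyte markers (10 genes) summed to 217 TPM with Aβ against 232 TPM in control cells, and 10 neuronal markers to 148 TPM with Aβ against 145 TPM in control cells. Of the neuronal sum, Map2 gave 105 TPM with Aβ and 107 TPM in control cells. The interval was above 1 for 2 of 8 measured neuronal markers and under 1 for 2. Endothelial markers, with 5 in the table, summed to 4.67 TPM with Aβ against 4.46 TPM in control cells. Pericyte and fibroblast markers, with 6, summed to 3.85 TPM with Aβ against 7.19 TPM in control cells. Of these, the collagen gene Col1a2 was estimated at 48.53 Aβ reads and 134.14 control reads.

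The clock is a feedback loop of transcription. CLOCK and BMAL1 bind E-box sequences and switch on the Period (Per) and Cryptochrome (Cry) genes, whose proteins return to the nucleus and block CLOCK and BMAL1. The same activators switch on Nr1d1 and Nr1d2, which encode the REV-ERB repressors of Bmal1, and Dbp, an activator at D-box sequences. BHLHE40 and BHLHE41 (DEC1 and DEC2) are repressors that bind E-boxes themselves. Bhlhe40 is also known as an early response gene to serum, hypoxia and cytokines, and Per1 as a target of CREB, the factor activated by cyclic AMP and calcium signals.

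RefSeq promoter windows (build GRCr8, which is not the build the reads were aligned to) were matched for 9 of the 10 members. Each window was taken as the 250 bases before an annotated start, and Nr1d1 has 2 such starts, giving 10 windows. The 4 windows below are shown because they hold an E-box or a D-box. Capitals mark the E-box CACGTG, which reads the same on both strands, the D-box TTATGTAA, and the core ACGTG of the hypoxia response element on either strand, a core that the E-box also contains. They run 5′ to 3′ on the strand of the gene, Bhlhe40 at chr4:143174200-143174449 (plus), Bhlhe41 at chr4:180569356-180569605 (minus), Nr1d1 at chr10:84229455-84229704 (minus, the second start) and Per2 at chr9:99496994-99497243 (minus).
Bhlhe40: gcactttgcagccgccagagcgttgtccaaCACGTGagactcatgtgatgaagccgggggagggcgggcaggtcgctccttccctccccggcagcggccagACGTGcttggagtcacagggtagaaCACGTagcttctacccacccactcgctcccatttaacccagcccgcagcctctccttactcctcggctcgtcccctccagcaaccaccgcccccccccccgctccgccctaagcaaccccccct
Bhlhe41: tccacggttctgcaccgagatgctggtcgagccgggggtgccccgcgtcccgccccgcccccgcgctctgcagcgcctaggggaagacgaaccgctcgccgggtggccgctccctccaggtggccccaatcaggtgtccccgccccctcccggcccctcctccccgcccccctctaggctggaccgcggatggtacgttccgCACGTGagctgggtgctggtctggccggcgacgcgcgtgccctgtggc
Nr1d1: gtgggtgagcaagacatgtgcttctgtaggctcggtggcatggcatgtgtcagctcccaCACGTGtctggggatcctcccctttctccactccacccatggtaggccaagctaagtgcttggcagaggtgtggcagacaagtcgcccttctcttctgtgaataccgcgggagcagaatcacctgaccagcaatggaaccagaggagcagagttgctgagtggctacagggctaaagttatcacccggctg
Per2: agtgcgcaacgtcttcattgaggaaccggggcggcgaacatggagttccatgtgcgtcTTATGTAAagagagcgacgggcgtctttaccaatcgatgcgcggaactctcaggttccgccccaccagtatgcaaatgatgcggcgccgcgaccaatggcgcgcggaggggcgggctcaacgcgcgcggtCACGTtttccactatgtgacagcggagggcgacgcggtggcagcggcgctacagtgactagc

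The E-box was found in 3 of the 10 windows, those of Bhlhe40, Bhlhe41 and the second Nr1d1 start. Of 33469 rat promoter windows of the same length, 5.59% held it. In Bhlhe40 it lay at bases -220 to -215 from the start, and in its relative Bhlhe41 at bases -48 to -43. The Bhlhe40 window held 2 further ACGTG cores outside the E-box, at bases -149 to -145 and -124 to -120, while Bhlhe41 had 0 outside it. An ACGTG core, inside an E-box or not, stood in 6 of the 10 windows, against 16.6% of all windows. The D-box was found in the Per2 window alone, at bases -192 to -185, and 0.828% of all windows held it. The ACGTG core of the Per2 window lay at bases -62 to -58, on the other strand. With the base after it, the letters there read CACGTT, which differs from the E-box in the last base alone. Such variants were not counted as E-boxes, so a window without CACGTG, such as that of Per2, may still hold a variant E-box. The core AGGTCA of the element shared by ROR and REV-ERB receptors was in the Nr1d2 window alone (14.1% of all windows). The full cyclic AMP element TGACGTCA was in 0 of the 10 windows (1.59% of all windows), and its shorter core TGACG was found in the Per3 window alone (18.2% of all windows). The windows of Per1 and Dbp held none of these motifs. The GC content of the windows ran from 49.2% in Per1 to 75.2% in Bhlhe41, with a median of 51.2% over all windows. A match is a description of the letters and not evidence of binding.

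**Figure D1:**
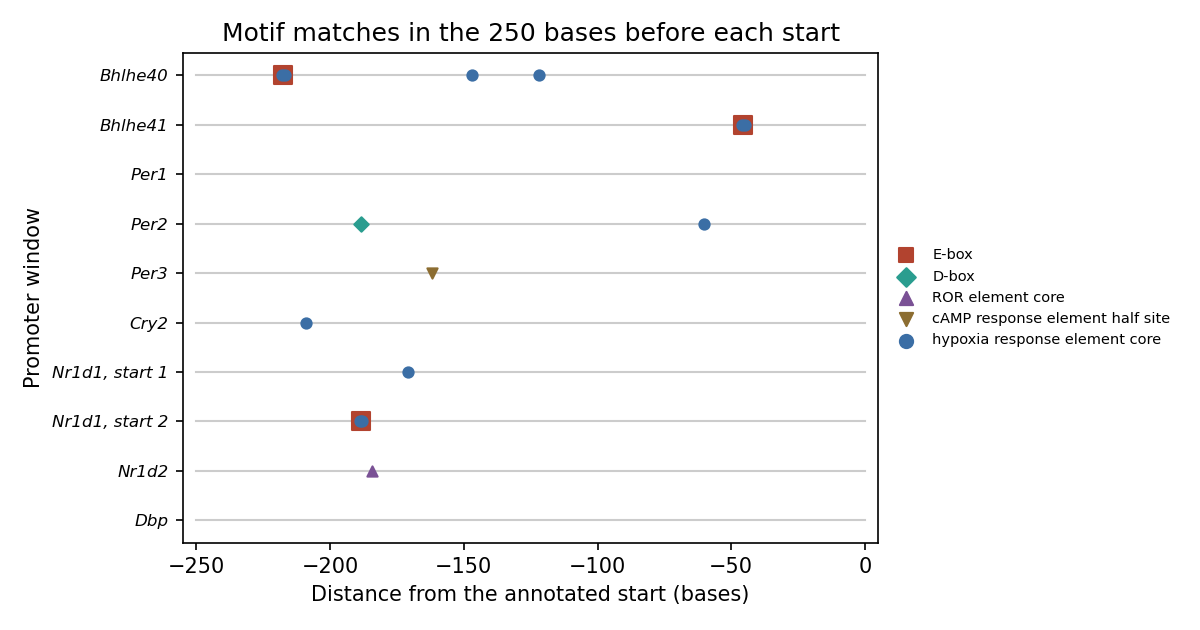
Motif matches in the promoter windows of 9 clock genes, with the distance from the annotated start in bases on the x axis and 1 line per window. Squares are E-boxes (CACGTG alone, without variants), and each holds a circle because the hypoxia core ACGTG lies inside it. The E-box lies far from the start in Bhlhe40 (-220) and close to it in Bhlhe41 (-48).

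Bhlhe40 was the member that differed most between the cultures. Its level was 47.2 TPM in the Aβ library and 23.0 TPM in the control library, from 1020 Aβ reads and 498 control reads. The read ratio, each library scaled to its own total and Aβ set over control, was 2.04 with a 95% interval of 1.83 to 2.28. On the log2(TPM + 1) scale the difference was 1.01. In bulk RNA, more cells that express a gene and more RNA per cell cannot be told apart. Bhlhe40 (gene number 79431) encodes a repressor that competes with CLOCK and BMAL1 for E-boxes. It stood at percentile 72.0 of the measured genes by TPM with Aβ and at 52.4 in the control. Among 9304 genes with whole read numbers, at least 1 TPM in 1 library or both and 200 or more reads in all, 5 had a higher read ratio.

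Its relative Bhlhe41 (117095) did not share that difference. Bhlhe41 had 142 reads (4.77 TPM) with Aβ against 172 reads (5.75 TPM) in control cells, a read ratio of 0.823 (0.655 to 1.03). The interval held 1 and did not meet that of Bhlhe40, and neither did the interval of any other member. The 2 genes encode proteins that bind the same E-box, and in TPM Bhlhe40 stood 9.89-fold above Bhlhe41 in the Aβ library and 3.99-fold above it in the control library. Summed over both, the level was 51.9 TPM with Aβ against 28.7 TPM in control cells.

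**Figure D2:**
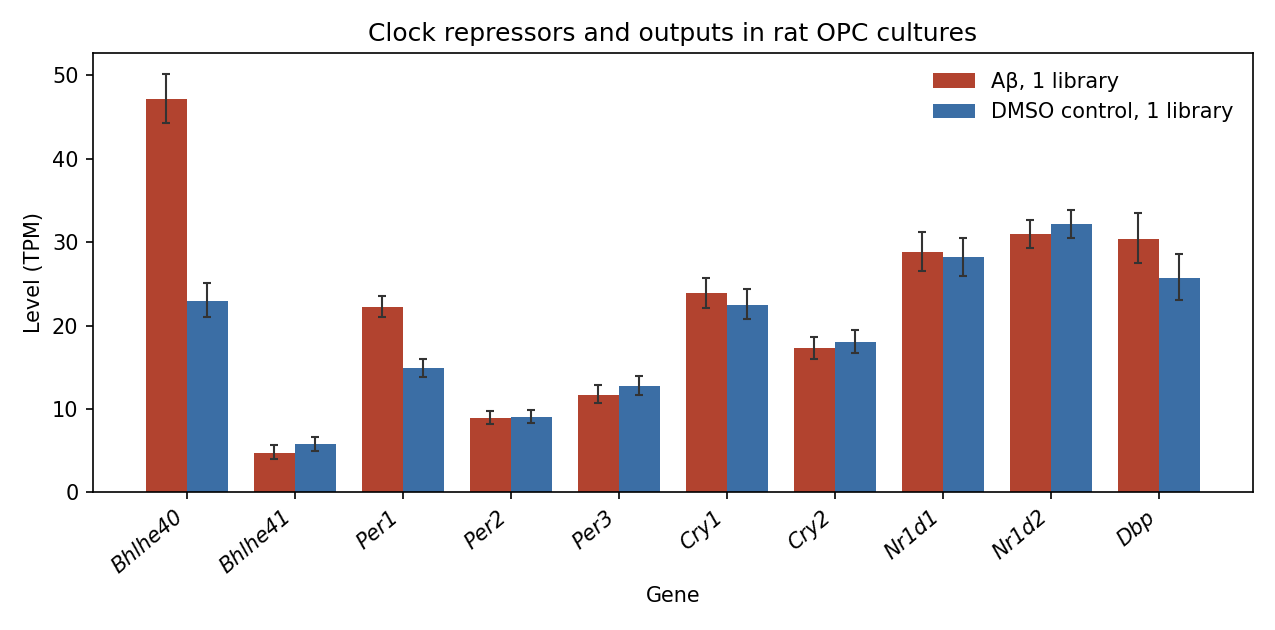
Levels in TPM of the 10 clock genes in the Aβ library (red, left bar) and the DMSO control library (blue, right bar), with exact 95% Poisson counting intervals from the reads. Bhlhe40, at 47.2 TPM with Aβ against 23.0 TPM in the control, and Per1, at 22.3 TPM with Aβ against 14.9 TPM in the control, are the pairs that stand farthest apart.

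Of the Period genes, which encode the repressors that accumulate and decay over each cycle, Per1 was higher with Aβ and its relatives lay near equal. Per1 (287422) had 1158 reads (22.3 TPM) in the Aβ library and 774 reads (14.9 TPM) in the control library. The read ratio was 1.49 (1.36 to 1.64), and 55 of the 9304 genes had a higher one. Per2 (63840) had 511 reads (8.93 TPM) with Aβ against 520 reads (9.04 TPM) in control cells, a ratio of 0.980 (0.866 to 1.11). Per3 (78962) had 463 reads (11.7 TPM) with Aβ against 508 reads (12.8 TPM) in control cells, a ratio of 0.909 (0.80 to 1.03). The intervals of Per2 and Per3 held 1 and lay wholly below that of Per1. The TPM of Per1 was 2.49 times that of Per2 in the Aβ library and 1.65 times in the control library.

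The Cryptochromes, the partners of the Period proteins and direct inhibitors of CLOCK and BMAL1, differed between the libraries by less than counting error. Cry1 (299691) was at 23.8 TPM with Aβ against 22.5 TPM in control cells, on 648 Aβ reads and 612 control reads and a ratio of 1.06 (0.944 to 1.18). Cry2 (170917) was at 17.3 TPM with Aβ against 18.0 TPM in control cells, on 661 Aβ reads and 694 control reads and a ratio of 0.95 (0.853 to 1.06). The 2 genes together had 1309 reads with Aβ and 1306 in the control, a ratio of 1.00 (0.925 to 1.08).

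The REV-ERB genes, which encode haem-binding receptors that repress Bmal1, also lay near equal. Nr1d2 (259241), the member with the most reads, had 1392 reads (30.9 TPM) with Aβ against 1456 reads (32.2 TPM) in control cells, a ratio of 0.954 (0.885 to 1.03). Nr1d1 (252917) was estimated at 612.35 reads (28.8 TPM) with Aβ against 599.65 reads (28.2 TPM) in control cells, a ratio of 1.02 (0.907 to 1.14). Nr1d1 was the 1 member whose read numbers were not whole. In RefSeq it overlaps Thra, a thyroid hormone receptor gene, which had 677.65 Aβ reads and 745.35 control reads and a ratio of 0.908 (0.817 to 1.01). The estimates of the 2 genes add up to whole numbers in both libraries, 1290 for Aβ and 1345 for the control. The sources used here do not say how reads in the overlap were assigned or whether strand was used, so the level of Nr1d1 is uncertain. The sum had a ratio of 0.957 (0.886 to 1.03).

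Dbp (24309), the D-box activator often used as a readout of CLOCK and BMAL1 activity, was at 30.4 TPM with Aβ against 25.7 TPM in control cells. Its 400 Aβ reads and 340 control reads gave a ratio of 1.17 (1.01 to 1.36), whose lower bound was just above 1. On TPM its counting intervals in the libraries overlapped, 27.5 to 33.5 TPM with Aβ and 23.1 to 28.6 TPM in the control.

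By rule of size, on values of TPM + 1, 2 of the 10 members were at least 25% higher with Aβ, Bhlhe40 and Per1, and 0 were at least 20% lower. Of the 12980 genes that reached 1 TPM in at least 1 library, called measured here, 5.74% were that much higher and 4.75% that much lower. At 2-fold, 1 member was higher (Bhlhe40) and 0 lower, against 0.501% and 0.493% of measured genes. Bhlhe40 lay just past 2-fold and missed it with a pseudocount of 5, at a log2 ratio of 0.90. The 95% interval of the read ratio was above 1 for 3 members, with Dbp added, and under 1 for 0, against 12% and 12.5% of measured genes. Among the 6980 genes with the same span of reads as the members, 314 to 2848 over both libraries, those shares were 11.6% and 10.9%. Because the group was formed with one of these ratios known, nothing is read from the counts. The median log2 ratio of the members was 0.01, as was that of all measured genes, and the members split 5 higher and 5 lower. All 12980 measured genes split 6710 higher and 6222 lower on that scale. Without Bhlhe40 and Per1, the other 8 had 4829.35 reads with Aβ and 4901.65 in the control, a ratio of 0.983 (0.944 to 1.02), and their single ratios ran from 0.823 to 1.17.

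**Figure D3:**
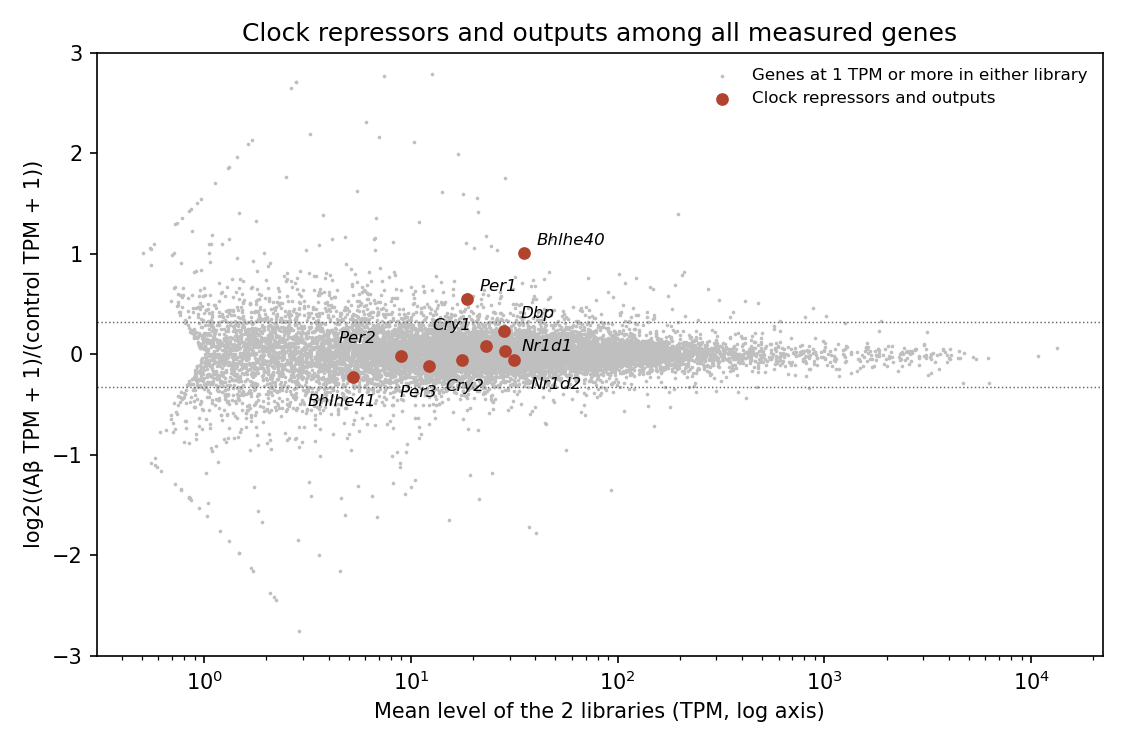
Mean level in TPM (log axis) against log2((Aβ TPM + 1)/(control TPM + 1)) for all measured genes (grey, 10 lie outside the drawn range) and the 10 clock genes (red). Dotted lines mark 25% higher and 20% lower, and of the clock genes Bhlhe40 (1.01) and Per1 (0.55) lie above the upper line.

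The order of the members by TPM differed at the top. In the Aβ library Bhlhe40 came first, and its counting interval of 44.3 to 50.1 TPM did not meet that of the next gene, Nr1d2. In the control library Bhlhe40 came after Nr1d2, Nr1d1 and Dbp, and its interval of 21.0 to 25.1 TPM overlapped those of its neighbours Dbp and Cry1. Per1 was sixth with Aβ, overlapping Cry1 above it, and seventh in the control, overlapping Per3 below it. Bhlhe41 was last and Per2 next to last in both libraries, and neither met the interval of its neighbour. TPM and read ratios gave the same picture for every member, since the TPM ratio divided by the read ratio ran from 1.00 to 1.01 over the 10 genes.

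The activators that these genes feed back on did not all lie on the same side of equal. Clock was at 19.1 TPM with Aβ against 19.7 TPM in control cells (read ratio 0.959, 0.900 to 1.02). Arntl, the table's name for Bmal1 and a target of the REV-ERBs, stood at 36.0 TPM with Aβ against 39.7 TPM in control cells, on 954 Aβ reads and 1066 control reads and a ratio of 0.893 (0.817 to 0.975). Npas2, a relative that can stand in for Clock, was at 9.52 TPM with Aβ against 8.61 TPM in control cells (1.10, 0.948 to 1.28). Arntl2 was estimated at 69.69 Aβ reads and 91.1 control reads (0.767, 0.554 to 1.06). In TPM, Bhlhe40 stood at 1.31 times Arntl in the Aβ library and at 0.579 times in the control library.

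Of the ROR receptors, which activate at the elements that REV-ERBs repress, Rorb was abundant, at 168 TPM with Aβ against 160 TPM in control cells (read ratio 1.06, 1.03 to 1.09). Rora was below 1 TPM in both libraries, on 79 Aβ reads and 71 control reads. Among the relatives of Dbp, Tef was at 33.6 TPM with Aβ against 35.8 TPM in control cells (0.931, 0.864 to 1.00), and Hlf had 58 Aβ reads and 55 control reads. Nfil3, the repressor that competes with DBP for the D-box, was higher with Aβ. It was at 19.4 TPM in the Aβ library and 12.6 TPM in the control library, on 349 Aβ reads and 229 control reads and a ratio of 1.52 (1.28 to 1.80). The TPM of Dbp was 1.56 times that of Nfil3 in the Aβ library and 2.04 times in the control library.

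A further list held genes that act on the stability or activity of clock proteins, not of PER and CRY alone. Of 14 measured, 1 was at least 20% lower and 0 were 25% higher (4.75% and 5.74% of measured genes), and the median log2 ratio was -0.04. That gene was Cipc, which encodes an inhibitor of CLOCK, at 20.1 TPM with Aβ against 25.7 TPM in control cells (read ratio 0.775, 0.704 to 0.852). The interval was also under 1 for the kinase gene Gsk3b (0.920, 0.880 to 0.962) and for Nono (0.958, 0.928 to 0.989), a PER-binding protein. For the casein kinases that phosphorylate PER the interval held 1, with Csnk1d at 0.984 (0.941 to 1.03) and Csnk1e at 0.997 (0.933 to 1.07). Ciart, a further E-box repressor of the clock, had 103 Aβ reads and 93 control reads. Over the activators, ROR receptors, PAR bZIP factors with Nfil3 and stability genes together, 22 were measured, of which 1 passed the rule upwards (Nfil3) and 1 downwards (Cipc).

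**Figure D4:**
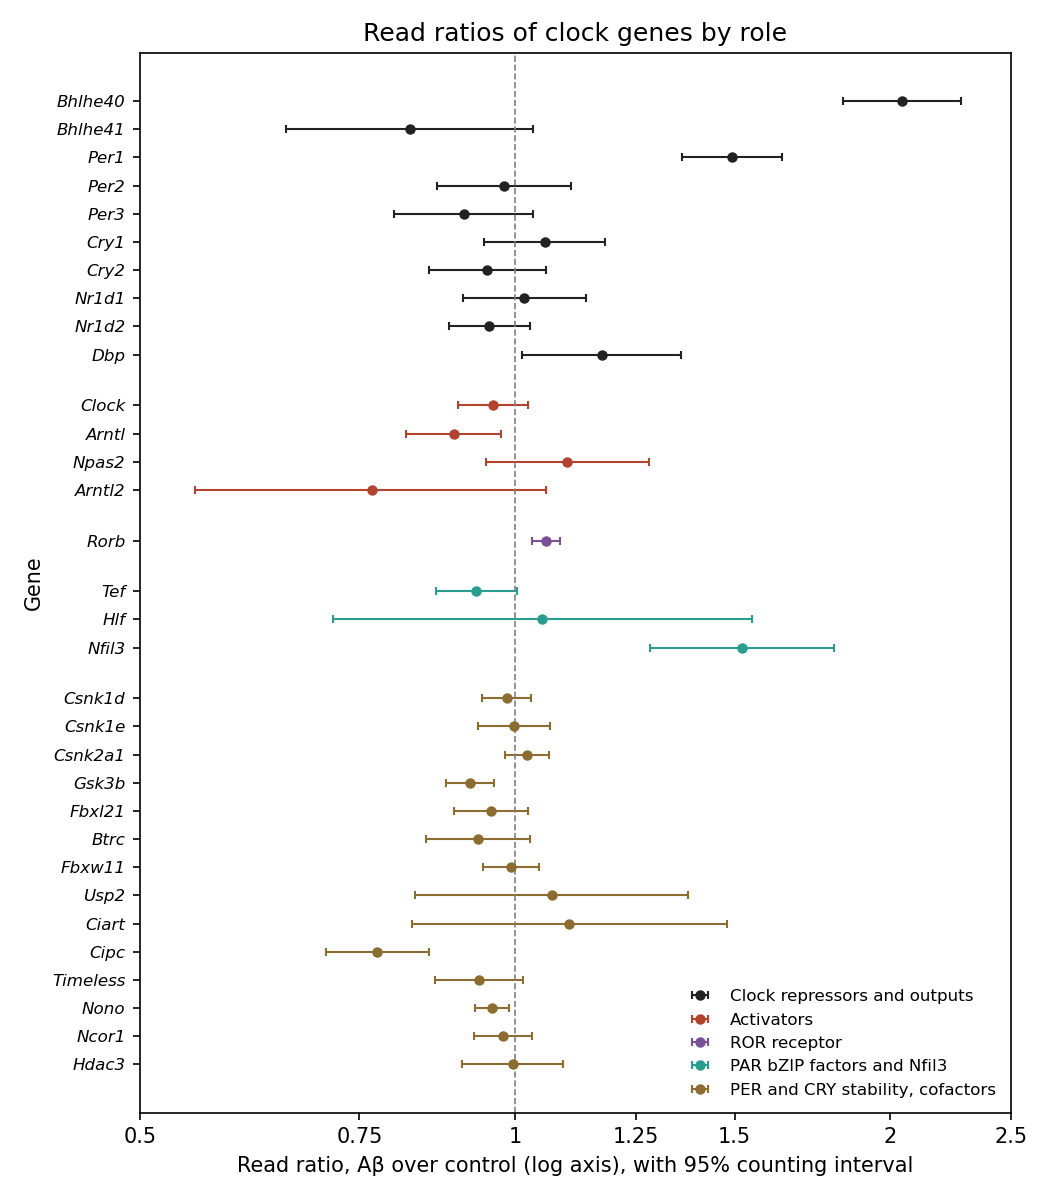
Read ratio, Aβ over control, on a log axis with 95% counting intervals for the 10 clock genes and 22 further measured clock genes grouped by role. Bhlhe40 (2.04), Per1 (1.49) and Nfil3 (1.52) lie to the right, Cipc (0.775) lies to the left, and most other intervals hold 1. The group marked PER and CRY stability, cofactors also holds genes with other roles, such as Cipc, an inhibitor of CLOCK.

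Of 13 measured genes known as outputs of the clock, 11 had a ratio above equal and 2 below. Among all 12980 measured genes, 6710 lay above equal and 6222 below. The median log2 ratio of the outputs was 0.12 against 0.01 for all genes. The interval was above 1 for 5 outputs and under 1 for 0, set beside 12% and 12.5% of measured genes. On the TPM + 1 scale 3 were at least 25% higher, Rgs16, Noct and Avp, set beside 5.74% of measured genes. Rgs16, a regulator of G protein signalling, was at 369 TPM with Aβ against 252 TPM in control cells (read ratio 1.38, 1.34 to 1.43). Noct (nocturnin) was at 31.7 TPM with Aβ against 23.9 TPM in control cells (1.32, 1.18 to 1.47). Avp, named here after its values were seen, rested on 5 reads in the Aβ library and 0 in the other. Wee1, a kinase that delays mitosis, was at 1.18 (1.10 to 1.26) and Nampt, an enzyme of NAD synthesis, at 1.15 (1.07 to 1.23).

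The nearest relatives of Bhlhe40 and Bhlhe41 by structure are the Hes and Hey repressors. Of 5 measured, 0 were at least 25% higher and 2 were 20% lower, set beside 5.74% and 4.75% of measured genes. The median log2 ratio was -0.27, but -0.12 with no filter beyond 1 read and -0.18 with a pseudocount of 5. Hes6, the most abundant of them, was at 65.4 TPM with Aβ against 65.3 TPM in control cells (read ratio 1.00, 0.903 to 1.11). Hey1 was at 35.1 TPM with Aβ against 42.5 TPM in control cells (read ratio 0.833, 0.696 to 0.997). Hes1 had 36 Aβ reads and 48 control reads (0.748, 0.472 to 1.18) and Hey2 63 Aβ reads and 51 control reads (1.23, 0.838 to 1.82). The other gene past the rule besides Hes1, Hes5, rested on 4 Aβ reads and 15 control reads and is named after its values were seen. So is Hes7, under 1 TPM in both libraries, on 10 Aβ reads and 2 control reads (4.99, 1.06 to 46.8).

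Lists of genes that share known inputs with Bhlhe40 and Per1 were set beside them. Like the members, the lists were chosen with earlier results of these data known, so their counts are descriptions and carry no test. CREB targets had a median log2 ratio of 0.46, with 15 of 16 measured above equal, set beside 6710 of all 12980 measured genes. In this list 11 were at least 25% higher, set beside 5.74% of measured genes. Their intervals were above 1 for 12 genes and under 1 for 1, set beside 12% and 12.5% of measured genes. The nuclear receptor genes Nr4a1 and Nr4a2 had read ratios of 2.81 (2.43 to 3.26) and 1.93 (1.56 to 2.39). Arc had 153 reads with Aβ and 76 in the control (2.01, 1.52 to 2.68), and the neurotrophin gene Bdnf had 54 with Aβ and 25 in the control (2.15, 1.32 to 3.61). The read ratios of the list ran from 0.687 for Ppargc1a to 2.81 for Nr4a1. The part of CREB in the ratio of Per1 was not tested.

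HIF targets of the hypoxia response had a median log2 ratio of -0.02. Of 19 measured, 8 lay above equal and 11 below, set beside 6710 and 6222 of all 12980 measured genes. In this list 2 were at least 25% higher and 0 were 20% lower, set beside 5.74% and 4.75% of measured genes. The interval was above 1 for 6 of them and under 1 for 4, set beside 12% and 12.5% of measured genes. The growth factor gene Vegfa was at 49.5 TPM with Aβ against 37.1 TPM in control cells (read ratio 1.32, 1.22 to 1.43) and the mitophagy receptor Bnip3 at 79.8 TPM with Aβ against 63.4 TPM in control cells (1.26, 1.15 to 1.37). Pdk1, a kinase that inhibits pyruvate dehydrogenase, was at 1.26 (1.03 to 1.54), and Ndrg1 had 106 Aβ reads and 82 control reads (1.29, 0.957 to 1.74). Glucocorticoid receptor targets had a median log2 ratio of 0.02 over 11 measured genes, with 1 at least 25% higher and 2 at least 20% lower, and intervals above 1 for 2 and under 1 for 2 (the same shares apply). Errfi1, a feedback inhibitor of the EGF receptor, was the higher one (1.27, 1.20 to 1.34). Il1r1 had 69 Aβ reads and 98 control reads (0.702, 0.508 to 0.965) and Cdkn1c 10 Aβ reads and 26 control reads (0.384, 0.165 to 0.822), while Zbtb16, under 1 TPM in both libraries, had 52 Aβ reads and 57 control reads (0.910, 0.613 to 1.35).

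**Figure D5:**
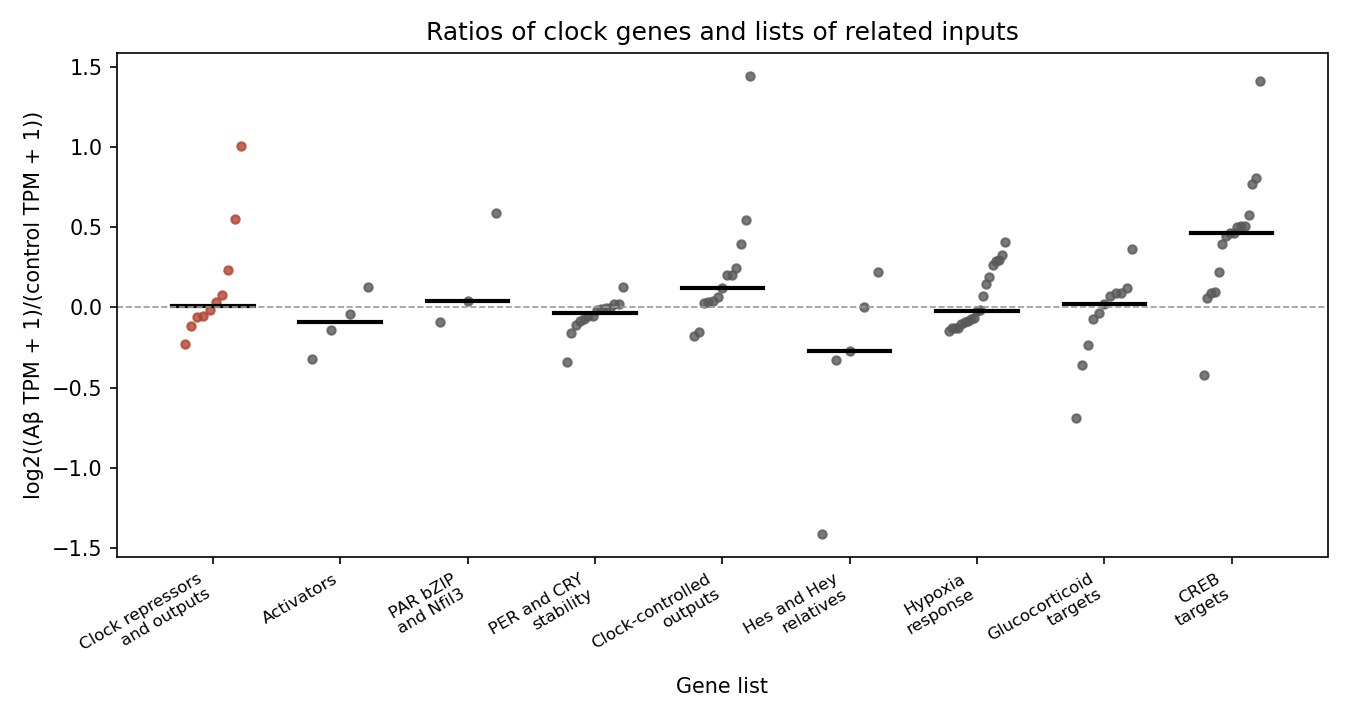
The log2((Aβ TPM + 1)/(control TPM + 1)) of each measured gene in 9 lists, with the list's median as a black bar. The median lies at 0.01 for the 10 clock genes (red), where Bhlhe40 stands at 1.01 and Per1 at 0.55, and at 0.46 for CREB targets. The list marked PER and CRY stability also holds genes with other roles, such as Cipc.

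Cytokine genes known in mouse to depend on Bhlhe40 in immune cells were measured as well. Of 4 measured, 3 were at least 25% higher and 1 was at least 20% lower (5.74% and 4.75% of measured genes), the interval was above 1 for 2 and under 1 for 0 (12% and 12.5%), and the median log2 ratio was 0.57, or 1.21 with a filter of 5 TPM. Il1b was at 260 TPM with Aβ against 149 TPM in control cells (read ratio 1.74, 1.64 to 1.85). Il10, which Bhlhe40 represses in mouse T cells and macrophages, had 11 Aβ reads and 21 control reads (0.522, 0.227 to 1.13), and Il1rn had 52 Aβ reads and 37 control reads (1.40, 0.902 to 2.20). Csf2, named after its values were seen, rested on 13 Aβ reads and 3 control reads. Microglia express Il1b and Il1rn, and of the 13 microglial markers 1 had an interval above 1 and 4 under it (12% and 12.5% of measured genes). The complement gene C1qa was at 53.4 TPM with Aβ against 80.2 TPM in control cells. Of the markers that define resting microglia, P2ry12 had 7 Aβ reads and 14 control reads, and Tmem119 was at 2.01 TPM with Aβ against 2.26 TPM in control cells. The part of such cells in the ratio of Bhlhe40 was not tested.

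The genes nearest to Bhlhe40 in read ratio, over 2 libraries, were Arc, Lif, Nlrp3, Nr4a2 and Il11, all with whole reads and 200 or more in all. Their absolute log2 difference from the ratio of Bhlhe40 ran from 0.02 for Arc to 0.09 for Il11. Lif, a cytokine of the interleukin-6 family, had 201 reads with Aβ and 102 in the control (1.97, 1.54 to 2.52), though its TPM differed less, at 10.02 TPM with Aβ against 8.42 TPM in control cells. The inflammasome sensor Nlrp3 had 215 Aβ reads and 110 control reads (1.95, 1.54 to 2.48) and the cytokine gene Il11 475 Aβ reads and 218 control reads (2.17, 1.85 to 2.56). Each of these intervals overlapped that of Bhlhe40, which follows from choosing the genes by nearness of their ratios to that of Bhlhe40.

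The authors' deposited table of gene ontology terms for genes higher with Aβ lists 282 terms, of which 0 are named for circadian processes or rhythm. In the authors' deposited table Per1 appears under 4 terms, which were responses to purine-containing compounds and to organophosphorus, regulation of monoatomic ion transport and the JNK cascade. The authors' deposited table gives the term for organophosphorus 11 genes, a fold enrichment of 2.98 and an adjusted p of 0.0275. The term for the response to hypoxia, which names 0 of the 10 clock genes, has 20 genes, a fold enrichment of 2.40 and an adjusted p of 0.0106 in the authors' deposited table. Nfil3 appears in the authors' deposited table under 2 terms, both on differentiation of white blood cells. Bhlhe40 appears under 0 terms there, and since the table lists 246 genes of the 391 tested, its absence does not say whether it was among them.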

How the data were processed

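RNA from 2 OPC cultures was sequenced, 1 library with Aβ and 1 with DMSO. Per the submitters' processing notes, the aligner was Bowtie2 and the genome build Rnor_6.0. The sources used here name no version, counting tool or annotation. The authors deposited estimated counts for 17049 genes (not whole for 11.6% of genes with Aβ and 12.2% in the control), together with TPM and FPKM. The deposited columns named normalized read count hold the read count rounded up and were not used. Per the file headers, the authors' enrichment table holds gene counts, a rich factor that is a fraction, fold enrichment ratio, z score, p-value and q-value.

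The log2 ratio was computed from TPM with a pseudocount of 1, which understates low genes, for the 12980 genes that reached 1 TPM in at least 1 library. A read ratio divides reads per total reads, rounded to whole numbers for its exact Clopper-Pearson 95% interval from the conditional binomial. Where 0 reads were counted, up to 3 are allowed, which is 0.191 CPM with Aβ and 0.192 CPM in the control. No test was possible with 1 library per group. The read ratio and its interval were tested on simulated counts that carried counting error alone. That test did not cover the other steps or the spread between cultures. TMM factors came from edgeR 4.0.16, and the other steps used Python 3.11.15, scipy 1.17.1 and pandas 2.3.3.

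The members, gene lists and rules were chosen with earlier results of these data known. All members are named. From the list of stability genes 1 gene is not reported here and is left out of its counts. Every gene of the lists of activators, ROR receptors, PAR bZIP factors and stability genes could be named, and of each other list up to 4 with 20 or more reads and the largest read ratio in either direction. The 5 genes nearest to Bhlhe40 were taken among those with whole reads and 200 or more in all. Promoter windows and overlapping genes came from RefSeq tables of build GRCr8.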

Additional observations from a re-analysis of the deposited data

How the results depend on the processing

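No paired analysis was possible because each group holds 1 library, and for the same reason no library could be left out. Of the 10 members, 2 were at least 25% higher and 0 were 20% lower under every alternative run: CPM in place of TPM, a pseudocount of 0.1 or 5, no filter beyond 1 read, a filter of 5 TPM, TMM scaling, and genes with whole reads alone, the last chosen after seeing the data and run on 9 members, since the reads of Nr1d1 are divided. The log2 ratio of Bhlhe40 ran from 0.90, under 2-fold, with a pseudocount of 5 to 1.04 with one of 0.1, and that of Per1 from 0.45 to 0.58. The median of the 4 measured cytokine genes was 1.21 with a filter of 5 TPM, which leaves fewer of them. The members' median ran from -0.02 to 0.01.

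Counts over all genes moved with the pseudocount and the filter. With a pseudocount of 5, 296 genes were 25% higher and 198 were 20% lower, and 17 were 2-fold higher and 18 lower, since a larger pseudocount shrinks ratios. With a filter of 5 TPM the counts were 435 and 279 by the same rule, and 35 and 34 at 2-fold, over 10585 genes. At 2-fold there were 118 higher and 132 lower with a pseudocount of 0.1, 41 and 34 with CPM, and 26 and 24 among genes with whole reads. As reported, the counts were 745 and 617 by that rule and 65 and 64 at 2-fold.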
